A study of Mus musculus with 36 samples.

Results

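The cytosolic ribosomal protein genes encode the proteins of the large and small subunits of the ribosome that translates nuclear messages in the cytoplasm. The members were the protein-coding genes named Rpl or Rps with a number, together with Rplp0, Rplp1, Rplp2 and Rpsa, with a mean of at least 1 FPKM over the wild-type libraries. FPKM is the read count of a gene scaled to its transcript length and to the depth of the library. Rpl3, Rpl3l, the Rps6k kinase genes and genes named as pseudogenes were not taken. Of 18762 genes in the tables, 101 carried such a name and 80 were members, 48 of the large subunit and 32 of the small subunit. The lowest member was Rps6 at a mean of 11.98 FPKM in WT libraries, and the next candidate below the threshold was Rpl39l at 0.213 FPKM.

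Each ribosome carries close to a single copy of most of these proteins, and their genes are transcribed at high levels in nearly every cell. Their messages start with a run of pyrimidines, the terminal oligopyrimidine tract, through which growth signalling by the mTOR kinase sets how strongly they are translated, largely without a change in message level. In the mouse, feeding and the circadian clock are known to affect ribosome production in liver. REV-ERB proteins, the repressors floxed here, form one arm of that clock.

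Hearts came from C57BL/6 mice aged 8 weeks, kept in a cycle of 12 h light and 12 h dark on normal chow, and were taken at ZT2, 6, 10, 14, 18 and 22, where ZT (zeitgeber time) counts the hours since the lights came on. The KO group carried Reverb fl/fl with MHC+, and the WT group carried Reverb fl/fl without it, so the floxed allele was present in both. MHC is taken here as the heart muscle promoter that drives Cre recombinase, which the labels do not spell out, and no group carried the MHC transgene alone. The comparison covered 15 KO libraries from ZT2 to ZT18 and 18 WT libraries from ZT2 to ZT22, 3 per group. KO hearts at ZT22 were not analysed here. The labels do not say that libraries of a group came from separate mice, so a p-value here reflects the spread among these libraries only, which may be technical.

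Recovered depth was 15.06 to 17.5 M reads in KO libraries and 13.69 to 15.78 M in WT libraries, so depth moved with genotype, and its part in the results was not tested. Nr1d1, which encodes REV-ERB alpha, stood at 192.2 to 316.6 FPKM in KO libraries (median 218.8) and 9.29 to 87.71 FPKM in WT libraries (median 31.15), a direction that goes against a simple loss of its message. The counts cover whole genes, so reads of a deleted exon could not be told apart from the rest, and libraries are called KO-labelled below for this reason. Nr1d2, which encodes REV-ERB beta, stood at 22.35 to 35.39 FPKM in KO-labelled libraries (median 29.54) and 10.69 to 42.35 FPKM in WT libraries (median 24.52). Of 7 heart muscle markers 4 passed as higher and 3 as lower in KO-labelled hearts, and their summed level was 53723 to 58682 FPKM, against 52478 to 58602 FPKM in WT libraries. In RNA from heart tissue, fewer cells of a type and less RNA per cell cannot be told apart.

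The promoter sequences of 61 of the 80 members were available from RefSeq (GRCm38.p6, the assembly also known as mm10), in 72 windows of 300 bases running from 250 before to 50 after each start. Stretches from 60 bases before to 20 bases after the start are printed for 7 members that carry the results below: 4 that were higher in KO-labelled hearts and then 3 that were lower. All are written 5′ to 3′ on the gene's strand, with letters of the searched motifs in capitals.
Rps27l: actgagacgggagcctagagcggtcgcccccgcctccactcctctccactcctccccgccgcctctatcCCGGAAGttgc
Rpl41: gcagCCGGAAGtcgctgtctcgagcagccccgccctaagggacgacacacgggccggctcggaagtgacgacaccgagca
Rpl38: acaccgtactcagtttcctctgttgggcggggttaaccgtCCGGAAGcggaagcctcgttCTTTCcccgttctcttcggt
Rps9: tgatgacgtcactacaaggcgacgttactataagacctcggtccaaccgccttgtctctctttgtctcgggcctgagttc
Rpl5: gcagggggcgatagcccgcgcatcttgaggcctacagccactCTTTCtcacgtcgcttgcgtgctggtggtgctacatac
Rps15a: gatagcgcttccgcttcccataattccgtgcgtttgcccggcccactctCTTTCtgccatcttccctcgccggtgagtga
Rps27: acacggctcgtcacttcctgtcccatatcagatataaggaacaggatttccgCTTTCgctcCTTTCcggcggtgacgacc
They lie at chr9:66946026-66946105 on the plus strand for Rps27l, chr10:128549149-128549228 on the minus strand for Rpl41, chr11:114668520-114668599 on the plus strand for Rpl38 and chr7:3703981-3704060 on the plus strand for Rps9. The others lie at chr5:107900468-107900547 on the plus strand for Rpl5, chr7:118116128-118116207 on the minus strand for Rps15a and chr3:90213629-90213708 on the minus strand for Rps27.

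The motif CTTTC, a short form of the pyrimidine tract, was searched on the gene's strand within 25 bases of the start, and 18 of the 72 member windows held it (25%), against 5.52% of the windows of genes in the fit and 6.75% of all 32851 promoter windows. CCGGAAG, the core bound by ETS factors such as GABP, was searched on both strands of the whole window and was in 36.1% of member windows, 17.2% of the windows of genes in the fit and 8.86% of all windows. ATGGCG, a core of YY1 sites, was in 30.6% of member windows, 14.8% of those of genes in the fit and 8.93% of all windows, also on either strand. CACGTG, the E-box bound by CLOCK with BMAL1 and by MYC, was in 11.1% of member windows, 9.95% of those of genes in the fit and 7.15% of all windows. TAGGTCA, a form of the element bound by REV-ERB and ROR proteins, was in 0 of the 72 member windows, 1.8% of those of genes in the fit and 2.61% of all windows, which says only that these letters are not in these windows. In 0 member windows did matches of different motifs share bases, and a match is a description, not a site. The members called higher held CTTTC in 7 of 32 windows, those called lower in 3 of 5 and those not called in 8 of 35.

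The members were among the most abundant messages of these hearts. Mean levels over WT libraries ran from 11.98 to 893.7 FPKM with a median of 367.1 FPKM, against a median of 8.303 FPKM over all 11790 genes tested, and all 80 members lay above that median. Their summed level was 28349 to 33363 FPKM in KO-labelled libraries (median 30665) and 27049 to 31221 FPKM in WT libraries (median 29770), and the ranges overlap. That sum was 5.10 to 5.72% of all FPKM in KO-labelled libraries and 4.88 to 5.64% in WT libraries. Within groups, a member's level had a median coefficient of variation of 4.79% (2.92 to 12.71% over members).

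Levels between members were far from equal per length, although the proteins are needed in near equal numbers. Highest over WT libraries were Rps2, a protein of the mRNA entry channel, at 893.7 FPKM, Rpl41, the smallest ribosomal protein, at 858.8 FPKM, Rps27 at 814.2 FPKM and Rps24 at 794.4 FPKM. At the low end 7 members averaged under 100 FPKM, namely the paralogs Rps27l, Rpl22l1 and Rpl7l1 and also Rpl22, Rps20, Rps15a and Rps6. Lengths implied by the tables were 5071 bases for Rps15a and 3376 for Rps20, against a median of 619.3 over members, and FPKM divides by that length. Rps6, the substrate of S6 kinase, had 10.75 to 16.17 FPKM in KO-labelled libraries and 9.32 to 14.09 FPKM in WT libraries, while its copy Rps6-ps4 on chromosome 2, annotated as a transcribed pseudogene, was listed at 477.8 to 557.9 FPKM in KO-labelled libraries and 472.8 to 561 FPKM in WT libraries. Rps6 thus took 2.12 to 3.01% of their joint FPKM in KO-labelled libraries and 1.76 to 2.68% in WT libraries. Near-identical copies can share reads, and 62 members have pseudogenes that carry their name in RefSeq, 314 in all, so single-gene levels are uncertain to that extent.

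Between genotypes the question was whether ribosomal protein messages differ in hearts floxed for Rev-erb with and without MHC. Averaged over the 5 shared times, 35 of 80 members (43.8%) were higher in KO-labelled hearts by limma on log2(FPKM + 1) with Benjamini-Hochberg adjusted p under 0.05, and 6 (7.5%) were lower. Over all genes tested, 33.2% were called higher and 23.4% lower. The differences were small: the median member difference was 0.033, against 0.022 over all genes, 27 members differed by at least 0.1 and 4 by at least 0.2 on the log2 scale, and all lay between -0.14 and 0.36. KO-labelled means lay above WT means at all 5 times for 31 members and below at all 5 times for 7. Counts by size and by direction at all times were not made over all genes tested, whose median difference was also positive.

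The count of higher against lower calls depended on how the libraries were scaled. After median-ratio scaling, which put the median of all genes at -0.0018, 25 of 80 members were higher and 14 lower, against 28.4% and 28.3% of all genes, and the median member difference was 0.006. With quantile normalization 26 were higher and 19 lower (median -0.0065), against 27.9% and 29% of all genes. With each library's trends over length and GC fitted and taken out, 20 were higher and 32 lower (median -0.025), against 28.8% and 28.5% of all genes. Across these 4 scalings 20 members were higher each time and 6 were lower each time. How many of all genes kept their call in all 4 was not counted, so these counts describe the members alone. The slope of a library's deviation per doubling of gene length was -0.047 to 0.029 in KO-labelled libraries (median -0.012) and -0.018 to 0.046 in WT libraries (median 0.011), and members are short, with a median of 619.3 bases against 2743 for all genes tested. Its part in the counts was not tested beyond the fit that removes it.

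**Figure D1:**
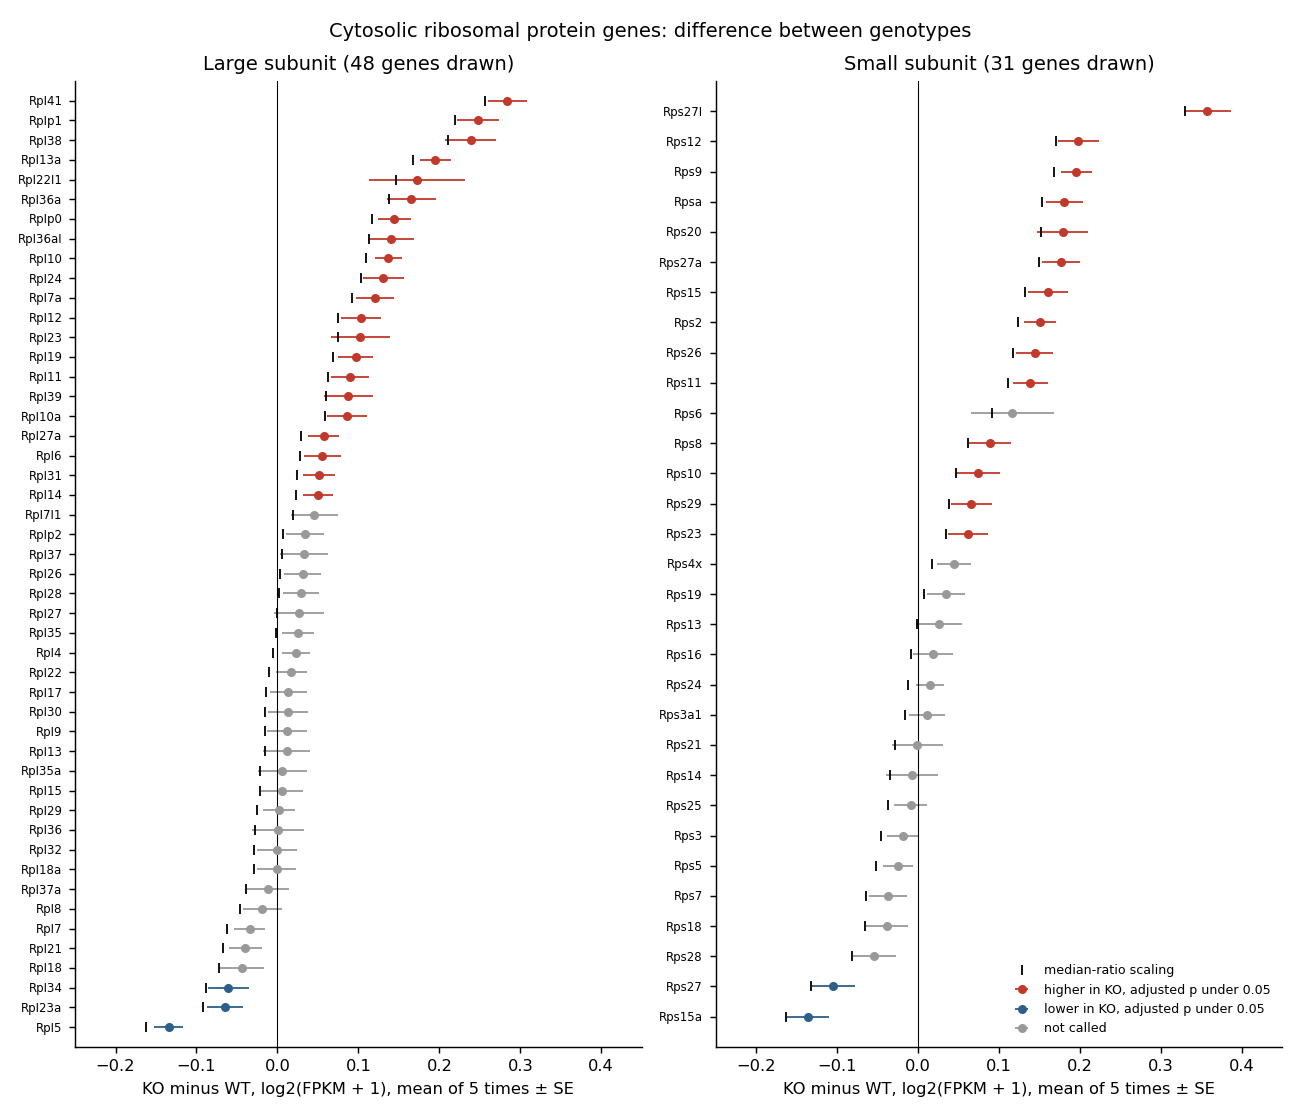
Each point is the difference between KO-labelled and WT libraries (log2(FPKM + 1), mean of 5 times, with its standard error) of a member of the large (left, 48 drawn) or small (right, 31 drawn) subunit, coloured by its limma call, and the black tick is the same difference after median-ratio scaling. Most points lie within 0.2 of 0, and Rps27l, Rpl41, Rplp1 and Rpl38 lie beyond 0.2.

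**Figure D2:**
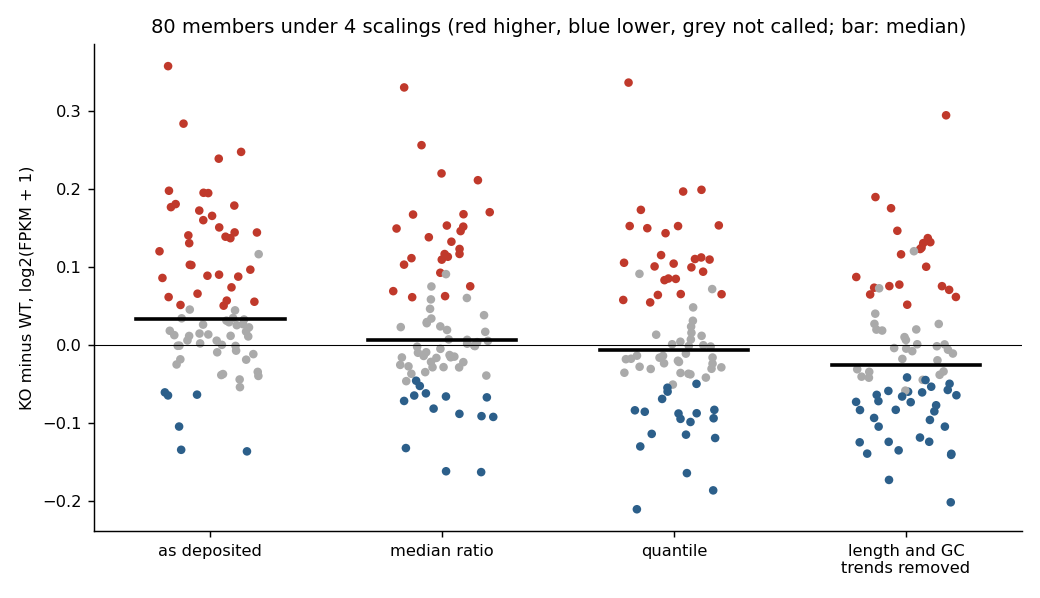
The vertical axis is the difference of each of the 80 members between KO-labelled and WT libraries on the log2(FPKM + 1) scale under 4 scalings, with horizontal jitter and a bar at the median. The bar stands at 0.033 for values as deposited and at -0.025 with length and GC trends removed, while the highest point, Rps27l, stays between 0.29 and 0.36.

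Among small subunit members the largest increase was that of Rps27l, the paralog of Rps27 and in human cells a p53 target (chr9:66944624-66949522). Its level was 80.6 to 106 FPKM in KO-labelled libraries (median 89.5) and 62.6 to 78.6 FPKM in WT libraries (median 70.6), and the groups do not overlap. Such separation held for 2 of 80 members (2.5%), against 3.54% of all genes tested, and the other member was Rps9. For Rps27l the mean difference was 0.36 ± 0.03 (log2, SE; limma adjusted p = 1.58e-11), and it was 0.29 with length and GC trends removed. At ZT2 its mean was 97.6 FPKM in KO-labelled hearts and 69.6 FPKM in WT hearts, and at ZT14 it was 84.1 FPKM in KO-labelled hearts and 67.1 FPKM in WT hearts.

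Rps27, its near-identical partner, had 685.7 to 857.7 FPKM in KO-labelled libraries (median 769.7) and 694.2 to 878.8 FPKM in WT libraries (median 821.6), ranges that overlap. Its mean difference was -0.10 ± 0.03 (limma adjusted p = 0.00138), so the pair moved in opposite directions. Within each library, Rps27l was 0.117 of Rps27 in KO-labelled hearts and 0.0849 in WT hearts, geometric means over 15 libraries each, and the log2 ratio was 0.47 higher in KO-labelled hearts (2-sided permutation test within times, 100000 resamples, adjusted p = 8e-05 over 4 pairs). The log2 ratio was -3.19 to -3.01 in KO-labelled libraries and -3.64 to -3.43 in WT libraries of the shared times. Such a ratio is free of any single factor per library, but not of quantile normalization or of trends over length and GC, and it shows unequal change of the pair.

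Rps9, a protein of the mRNA entry site, had 546.8 to 628.8 FPKM in KO-labelled libraries (median 587.7) and 478.8 to 546.1 FPKM in WT libraries (median 509.1). The groups do not overlap, and the mean difference was 0.20 ± 0.02 (limma adjusted p = 9.26e-10). Rps12, a small subunit protein, had 333.4 to 394.8 FPKM in KO-labelled libraries and 275.8 to 335.3 FPKM in WT libraries, with a mean difference of 0.20 ± 0.03 (adjusted p = 1.40e-07). Rpsa, also known as the laminin receptor, had 389.7 to 470 FPKM in KO-labelled libraries and 323 to 423.7 FPKM in WT libraries, with a mean difference of 0.18 ± 0.02 (adjusted p = 9.80e-08). Rpsa overlaps between genotypes, while Rps12 overlaps only through a WT library at ZT22, since its highest WT value at the shared times was 330.1 FPKM. All 3 genes were higher in each of the 4 scalings.

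In the large subunit, Rpl41 was the most changed member, at 895.4 to 1221 FPKM in KO-labelled libraries (median 997.2) and 715.9 to 983.2 FPKM in WT libraries (median 840.2), with overlap. Its mean difference was 0.28 ± 0.02 (limma adjusted p = 3.96e-11). Rpl38, known in the mouse for its part in axial patterning, had 374.9 to 493.8 FPKM in KO-labelled libraries and 286.9 to 431.3 FPKM in WT libraries, and its mean difference was 0.24 ± 0.03 (adjusted p = 1.99e-07). Rpl13a had 294.6 to 353.4 FPKM in KO-labelled libraries and 241 to 303.1 FPKM in WT libraries, with a mean difference of 0.19 ± 0.02 (adjusted p = 1.00e-09).

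The stalk of the large subunit, which recruits the elongation factors, is built from Rplp0, Rplp1 and Rplp2. Rplp1 had 790.8 to 1045 FPKM in KO-labelled libraries (median 886.5) and 668.6 to 827.7 FPKM in WT libraries (median 741.3), with overlap, and its mean difference was 0.25 ± 0.03 (limma adjusted p = 2.62e-09). Rplp0 had 603.7 to 707.6 FPKM in KO-labelled libraries and 532.9 to 655.1 FPKM in WT libraries, with a mean difference of 0.14 ± 0.02 (adjusted p = 6.72e-07). Rplp2 had 518.2 to 640.7 FPKM in KO-labelled libraries and 479 to 601.8 FPKM in WT libraries, and its difference of 0.03 ± 0.02 did not pass (adjusted p = 0.227). With length and GC trends removed Rplp2 was lower instead, by 0.06 (adjusted p = 0.0239).

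Besides Rps27, members lower in KO-labelled hearts included Rps15a, Rpl5, Rpl23a and Rpl34. Rps15a had 23.4 to 28.8 FPKM in KO-labelled libraries (median 25.4) and 24.7 to 33.2 FPKM in WT libraries (median 28.0), and its mean difference of -0.14 ± 0.03 was the largest decrease (limma adjusted p = 4.88e-05). Rpl5, which binds the 5S ribosomal RNA together with Rpl11, had 213 to 259.3 FPKM in KO-labelled libraries and 229.4 to 273.7 FPKM in WT libraries, with a mean difference of -0.13 ± 0.02 (adjusted p = 2.09e-07). Rpl23a, at the exit of the peptide tunnel, differed by -0.06 ± 0.02 (adjusted p = 0.0141), and Rpl34 by -0.06 ± 0.03 (adjusted p = 0.0438). Rpl34 is at the edge of the threshold: leaving out each of 33 libraries in turn lost its call in 19 fits (adjusted p up to 0.0863), although it was lower in all 4 scalings.

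Paralog pairs and X-linked members behaved unevenly. Rpl22l1, whose message Rpl22 is known to restrain in the mouse, had 19.9 to 25.1 FPKM in KO-labelled libraries and 15.5 to 26.2 FPKM in WT libraries, while Rpl22 had 57.9 to 66.5 FPKM in KO-labelled libraries and 58.1 to 65.5 FPKM in WT libraries. Rpl22l1 differed by 0.17 ± 0.06 (limma adjusted p = 0.0143), which did not pass with length and GC trends removed (adjusted p = 0.0809), and Rpl22 by 0.02 ± 0.02 (adjusted p = 0.469). Within libraries the log2 ratio of Rpl22l1 to Rpl22 was 0.16 higher in KO-labelled hearts (permutation test, adjusted p = 0.023) and that of Rpl7l1 to Rpl7 was 0.08 higher (adjusted p = 0.035). Neither Rpl7l1 nor Rpl7 was called as deposited, while Rpl7 was lower after median-ratio scaling (-0.06, limma adjusted p = 0.0085). Such ratios are not free of trends over length and GC, and implied lengths were 2535 bases for Rpl7l1 and 858.7 for Rpl7. For Rpl36al and Rpl36a, both called higher, at 0.14 ± 0.03 and 0.17 ± 0.03 (adjusted p = 0.000124 and 3.06e-05), the log2 ratio differed by -0.02 (permutation test, adjusted p = 0.36). The X chromosome carries Rpl36a and also Rpl39, Rpl10 and Rps4x. Rpl39 differed by 0.09 ± 0.03 (limma adjusted p = 0.0158), by 0.06 after median-ratio scaling (adjusted p = 0.103) and by 0.020 with length and GC trends removed (adjusted p = 0.565). Rpl10 differed by 0.14 ± 0.02 (adjusted p = 4.04e-08) and Rps4x by 0.04 ± 0.02 (adjusted p = 0.0762). Rps6 differed by 0.12 ± 0.05, which did not pass (adjusted p = 0.0527), but did with a replicate block (0.0455), with a filter at a mean of 5 FPKM (0.0458) and without WT ZT22 (0.0424). Leaving out 1 library brought it past the threshold in 11 of 33 fits. The transcribed pseudogene Rps6-ps4 went the other way, by -0.04 ± 0.02 (limma adjusted p = 0.047) and by -0.07 after median-ratio scaling (adjusted p = 0.00201). The joint FPKM of Rps6 and Rps6-ps4 had a median of 509.6 in KO-labelled libraries and 527.3 in WT libraries.

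**Figure D3:**
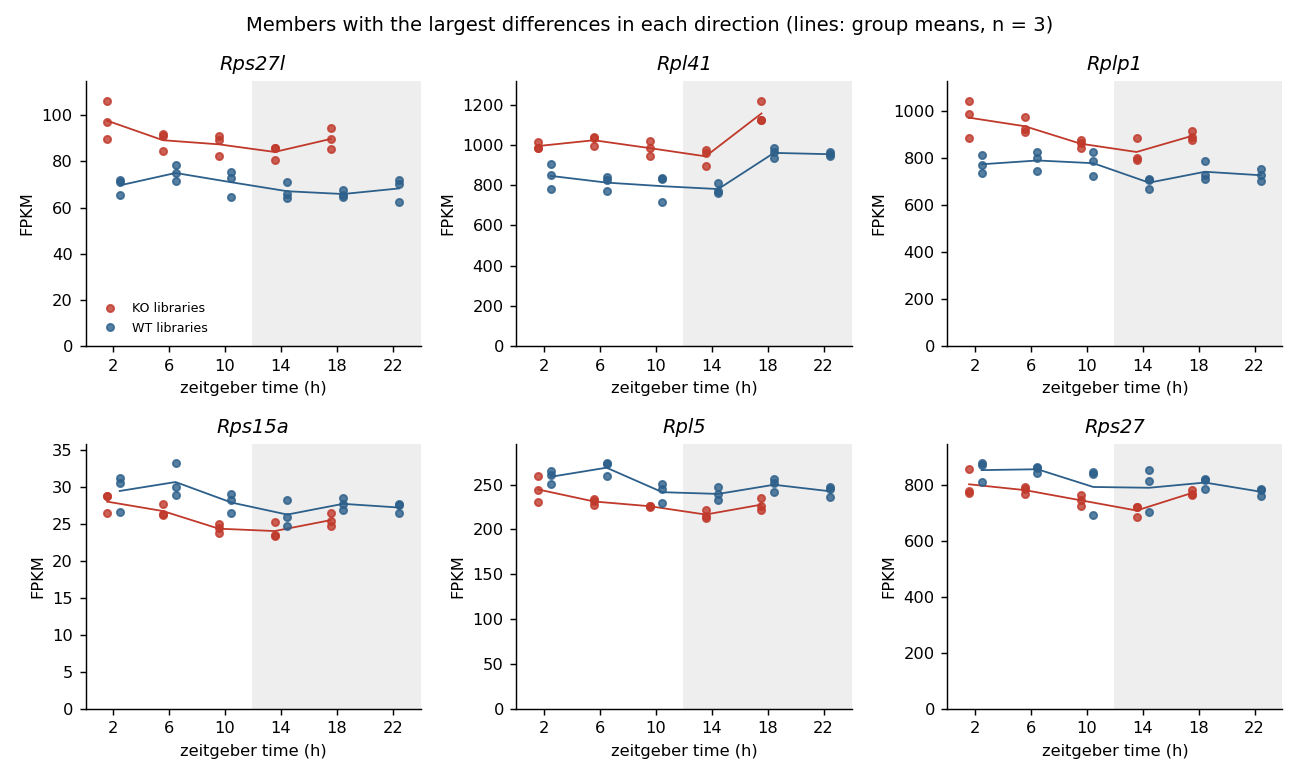
Each panel plots the FPKM of a gene in every library against zeitgeber time, with KO-labelled libraries in red drawn just left of their time, WT libraries in blue just right of it, lines through the group means (n = 3) and the dark phase shaded. In the upper row Rps27l, Rpl41 and Rplp1 lie higher in KO-labelled libraries at every shared time, and in the lower row Rps15a, Rpl5 and Rps27 lie lower on average at every shared time.

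Time by time, member numbers are counts out of 80, while percentages are shares of all genes tested. At ZT2, 18 of 80 members were called higher and 0 lower, where 18.6% of all genes tested were higher and 11.3% lower. The counts of higher and lower members were 11 and 3 at ZT6, with 19.1% and 12.7% of all genes tested, and 15 and 2 at ZT10, with 14.3% and 13.5%. They were 16 and 3 at ZT14, with 19.2% and 11.8%, and 13 and 1 at ZT18, with 17.7% and 14.4%. The median member difference was 0.07 at ZT2, 0.01 at ZT6, 0.06 at ZT10, 0.05 at ZT14 and 0.05 at ZT18, against 0.03, 0.03, -0.01, 0.04 and 0.01 over all genes at the same times. After median-ratio scaling, higher and lower members numbered 13 and 1 at ZT2 (14.6% and 14.8% of all genes), 7 and 7 at ZT6 (15.6% and 15.6%), 15 and 2 at ZT10 (14.6% and 13.4%), 7 and 6 at ZT14 (14.4% and 15%) and 10 and 1 at ZT18 (16.3% and 16.1%). With quantile normalization they numbered 10 and 7 at ZT2 (14.3% and 14.9%), 9 and 8 at ZT6 (15.6% and 16.2%), 10 and 11 at ZT10 (14.3% and 13.8%), 15 and 8 at ZT14 (14.9% and 14.8%) and 9 and 4 at ZT18 (15.5% and 16.6%). With length and GC trends removed they numbered 6 and 12 at ZT2 (15.1% and 15%), 2 and 22 at ZT6 (15.4% and 16.7%), 11 and 12 at ZT10 (15.2% and 13.5%), 12 and 6 at ZT14 (15% and 15.5%) and 10 and 4 at ZT18 (16.5% and 17%). The times at which higher calls outnumbered lower ones in all 4 scalings were ZT14 and ZT18, though by only 7 to 6 at ZT14 after median-ratio scaling. At ZT18 the share of members called higher was below that of all genes in each of the 4 scalings. At ZT14 it was above or not above that of all genes depending on the scaling. This pattern was not tested.

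Single libraries moved some of these counts. Without KO-labelled ZT2 replicate 3, 10 members were higher at ZT2. At ZT14 leaving out KO-labelled replicate 1, WT replicate 1 or WT replicate 2 left 8, 9 and 10 higher members. Replicate numbers of WT ZT14 follow the sample record, and the column headers of those 3 tables give other numbers. At ZT6, leaving out KO-labelled replicate 2, WT replicate 1 or WT replicate 2 left 7 each time. Rpl5 was among the lower members at ZT6, ZT14 and ZT18. Whether the difference varied with time was tested by an interaction over the 5 times, which called 0 members, against 5.37% of all genes tested, and 1 member had an unadjusted p under 0.05, or 5 after median-ratio scaling (limma, lowest adjusted p = 0.0916 as deposited, for Rps2). The interaction called 0 members after median-ratio scaling (5.34% of all genes), 1 after quantile normalization (4.96%) and 3 once length and GC trends were removed (5.9%).

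Over the day the question was whether ribosomal protein messages cycle in these hearts and whether the cycle differs with genotype. A cosine with a period of 24 h was fitted to each genotype, over 5 times in KO-labelled and 6 times in WT hearts. It called 28 of 80 members rhythmic in KO-labelled hearts (35%), against 26.9% of all genes tested, and 34 in WT hearts (42.5%), against 38.6% of all genes tested. After median-ratio scaling 29 were rhythmic in KO-labelled hearts (26.3% of all genes) and 33 in WT hearts (37.8%). As deposited, 19 were called in both genotypes and 43 in either. The median amplitude, from mean to peak, was 0.099 on the log2 scale in KO-labelled and 0.088 in WT hearts, and over all rhythmic genes it was 0.18 in KO-labelled and 0.15 in WT hearts.

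As deposited and after median-ratio scaling, every rhythmic member peaked between ZT19 and ZT7, from the late dark phase to the middle of the light phase, a window chosen after the peaks were seen. Of all rhythmic genes, 45.9% in KO-labelled and 43.2% in WT hearts peaked there. In KO-labelled hearts 8 members peaked from ZT19 to ZT23, 17 from ZT23 to ZT3 and 3 from ZT3 to ZT7, and in WT hearts 12, 10 and 12 did. KO-labelled hearts have no ZT22 sample, so peaks near it are interpolated. With quantile normalization 20 members were rhythmic in KO-labelled hearts (24.3% of all genes were) and 37 in WT hearts (37.6%). Of these members, 18 and 35 peaked in the window. With length and GC trends removed 19 members were rhythmic in KO-labelled hearts (26.4% of all genes were) and 44 in WT hearts (35.6%). Of these members, 16 and 37 peaked in the window. The share of all rhythmic genes that peaked there was counted only for values as deposited. Among the 19 members rhythmic in both, 17 peaked earlier in KO-labelled hearts, with a median shift of -1.99 h; over all 2060 genes rhythmic in both, 59.6% peaked earlier, with a median of -0.43 h. After median-ratio scaling 17 of 20 peaked earlier and the median shift was -1.27 h, and when WT ZT22 was left out it was 16 of 18 and -1.22 h. The share of all genes that peaked earlier was counted only for values as deposited. The shift was not counted with quantile normalization or with length and GC trends removed. Members varied together between libraries, so their shifts are not independent. The rhythm difference itself was called for 0 members, against 1.09% of all genes tested (limma, 7 with an unadjusted p under 0.05, lowest adjusted p = 0.219). It was called for 0 after median-ratio scaling (0.985% of all genes), 1 after quantile normalization (0.984%) and 0 once length and GC trends were removed (1.16%). Without KO-labelled ZT2 replicate 3, 16 members were rhythmic in KO-labelled hearts.

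**Figure D4:**
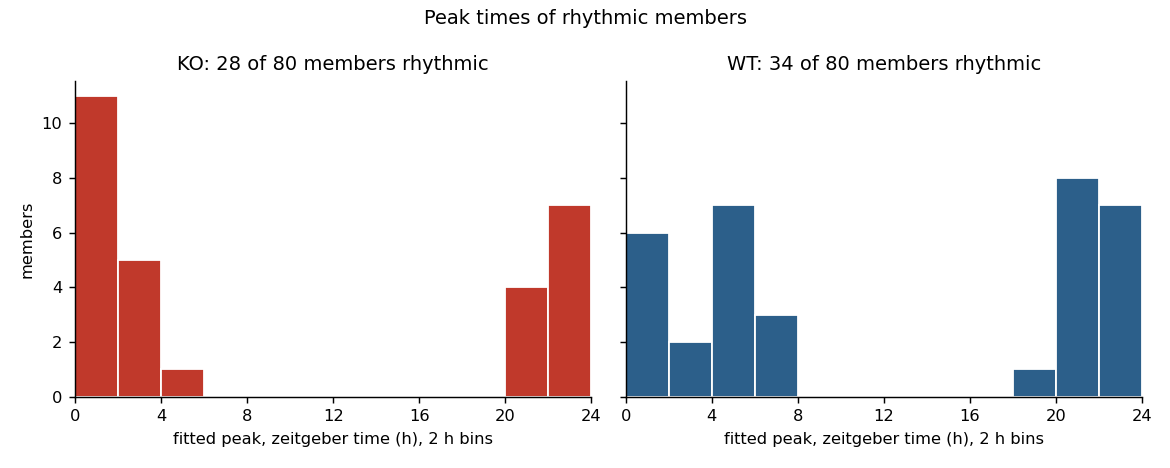
The horizontal axis is the fitted peak time of members called rhythmic, in zeitgeber time with bins of 2 h, for KO-labelled (left, red) and WT (right, blue) hearts, and the vertical axis is the number of members. All 28 KO-labelled and 34 WT peaks lie between ZT19 and ZT7, and KO-labelled peaks gather between ZT23 and ZT3, where 17 of the 28 lie.

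Among the rhythmic members Rps2, of the mRNA entry channel, cycled in WT hearts with an amplitude of 0.16 and a peak at ZT22.6 (limma adjusted p = 1.53e-06). Its group means were 1019, 941, 962.9, 930 and 988.2 FPKM from ZT2 to ZT18 in KO-labelled hearts and 929.4, 882.4, 793.6, 809.5, 955.3 and 992.2 FPKM from ZT2 to ZT22 in WT hearts. The lowest means stood at ZT14 in KO-labelled hearts and at ZT10 in WT hearts, and the KO-labelled rhythm did not pass (adjusted p = 0.135). The WT mean at ZT10 was pulled down by replicate 1, at 747 FPKM, against 816.4 and 817.4 FPKM in the other replicates. The difference in rhythm did not pass either (adjusted p = 0.265). Rpl11, which with Rpl5 carries the 5S ribosomal RNA, peaked at ZT20.3 in WT hearts (amplitude 0.13, adjusted p = 0.000164), with means of 358.6 FPKM at ZT10 and 434.6 FPKM at ZT18. In KO-labelled hearts its means were 411.8 FPKM at ZT10 and 436.1 FPKM at ZT18 (adjusted p = 0.181).

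Rpl34 was rhythmic in both genotypes, peaking at ZT3.15 in KO-labelled hearts (amplitude 0.13, limma adjusted p = 0.000666) and ZT6.14 in WT hearts (amplitude 0.13, adjusted p = 0.000426). Its means were 323.4 FPKM at ZT2 and 274.5 FPKM at ZT18 in KO-labelled hearts, and 336.2 FPKM at ZT6 and 279.9 FPKM at ZT18 in WT hearts. Rpl7l1, the Rpl7 paralog, had the largest amplitude in both genotypes among members called there, 0.16 with a peak at ZT21.6 in KO-labelled hearts (adjusted p = 0.00851) and 0.19 with a peak at ZT22.9 in WT hearts (adjusted p = 5.71e-05). Rpl10, which joins late in large subunit maturation, peaked at ZT1.36 in KO-labelled hearts (amplitude 0.09, adjusted p = 0.00274) and ZT5.52 in WT hearts (amplitude 0.07, adjusted p = 0.00409). Rps24 peaked at ZT2.66 in KO-labelled hearts (adjusted p = 0.00296) and ZT5.92 in WT hearts (adjusted p = 0.000592), and Rpl9 at ZT1.89 in KO-labelled hearts (adjusted p = 0.00413) and ZT3.15 in WT hearts (adjusted p = 0.00569).

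**Figure D5:**
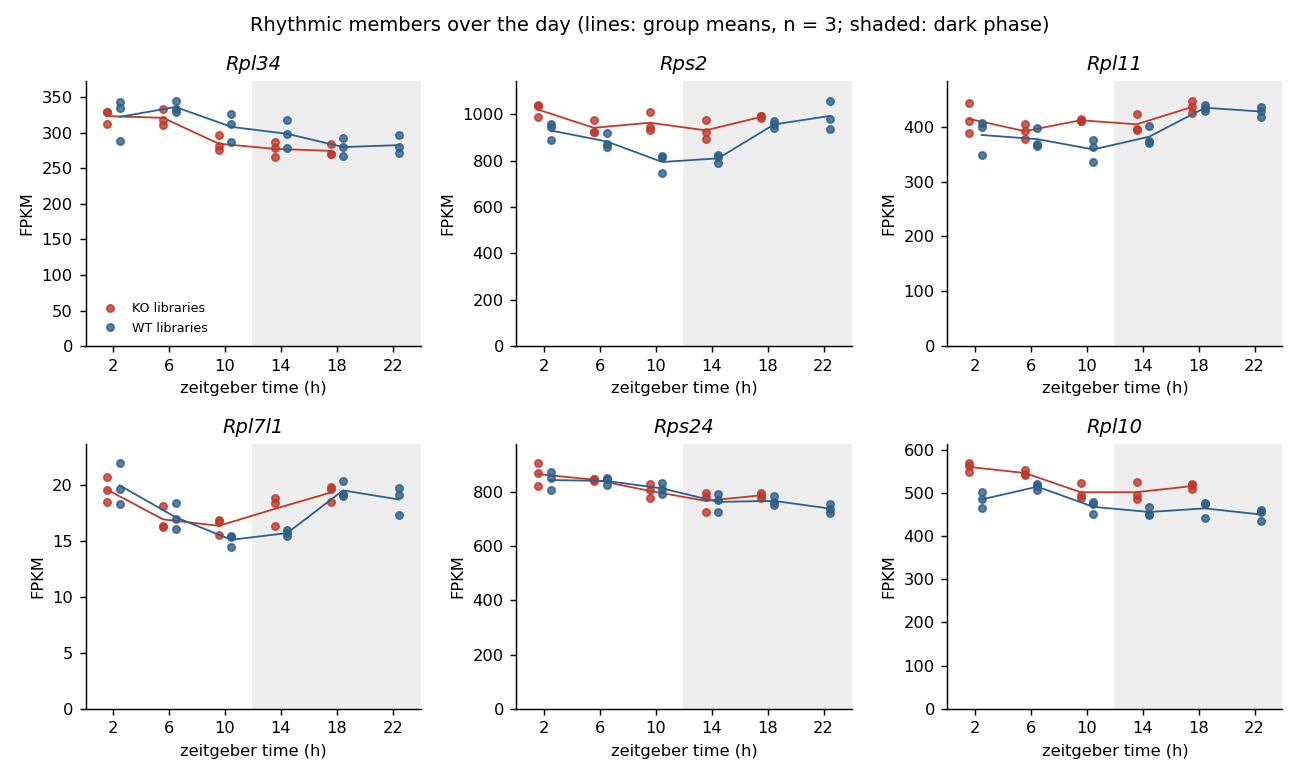
Each panel plots the FPKM of a rhythmic member in every library against zeitgeber time, with KO-labelled libraries in red just left of their time, WT libraries in blue just right of it, lines through the group means (n = 3) and the dark phase shaded. Rps2 and Rpl11 dip at ZT10 in WT hearts, to means of 793.6 and 358.6 FPKM, where KO-labelled means are 962.9 and 411.8 FPKM. Replicate 1 is the lowest WT library at ZT10 for both genes, at 747 and 336.4 FPKM.

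Members varied together between libraries. The correlation of each member with the mean of the others over the 33 libraries had a median of 0.673 (0.209 to 0.884), and after group means were removed it was 0.723 (-0.013 to 0.926). These are descriptions over libraries that share depth and scaling. The difference of a member between genotypes had a Spearman correlation of -0.05 with its length, 0.10 with GC content and -0.01 with its level over the 80 genes.

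Other genes of translation were set beside the members. Of 3 ribosomal proteins outside the naming rule 2 were higher and 0 lower. Fau, which encodes a small subunit protein as a fusion, had 203.7 to 264.4 FPKM in KO-labelled libraries and 196.2 to 245.3 FPKM in WT libraries, with overlap (0.11 ± 0.02, limma adjusted p = 0.000217). Of 7 elongation factors 5 were higher and 2 lower, with a median difference of 0.13, led by Eef1a1, which delivers transfer RNA, at 682.1 to 900.6 FPKM in KO-labelled libraries and 523.2 to 663.2 FPKM in WT libraries. Its mean difference of 0.46 ± 0.02 (adjusted p = 1.46e-17) was larger than that of any member, and Eef2 differed by 0.16 ± 0.02 (adjusted p = 2.68e-10).

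Of 25 initiation factors 10 were higher and 6 lower (7 and 9 after median-ratio scaling). Eif4a1, the cap-complex helicase, differed by 0.28 ± 0.03 (limma adjusted p = 3.02e-10) and Eif4g1, its scaffold, by 0.21 ± 0.02 (adjusted p = 2.16e-12), while the cap-binding Eif4e differed by -0.23 ± 0.02 (adjusted p = 4.77e-10). Of 11 other genes with a pyrimidine start 5 were higher and 1 lower (3 and 2 after median-ratio scaling), led by Npm1, a nucleolar chaperone, at 0.20 ± 0.02 (adjusted p = 1.86e-08). Of 18 genes of growth signalling, 3 were higher and 8 lower (2 and 9 after median-ratio scaling): Ddit4, an mTOR inhibitor, differed by 1.25 ± 0.08 (adjusted p = 5.70e-14), Sesn1, another, by -0.55 ± 0.04 (adjusted p = 1.87e-11), and Eif4ebp1, a translation repressor under mTOR, by -0.41 ± 0.03 (adjusted p = 2.87e-12).

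Markers of other cell types gave, of 5 red blood cell genes tested, 0 called, of 6 macrophage genes 2 higher, of 5 endothelial genes 2 lower, of 5 fibroblast genes 3 higher and of 2 fat genes 1 lower. The summed fibroblast level was 344.2 to 484 FPKM in KO-labelled libraries (median 427.8) and 356.9 to 426.2 FPKM in WT libraries (median 378.2). For smooth muscle 1 of 4 was higher, Acta2, at 154.9 to 367.1 FPKM in KO-labelled libraries and 45.8 to 235.8 FPKM in WT libraries. The lymphocyte sum was 0.91 to 2.02 FPKM in KO-labelled libraries and 0.63 to 2.38 FPKM in WT libraries, whose genes were all too low to be tested. Of 4 atrial genes Sln and Bmp10 had a median of 0, and the 1 tested, Myl4, was higher, at 1.95 to 4.26 FPKM in KO-labelled libraries and 1.09 to 5.01 FPKM in WT libraries (0.29 ± 0.10, limma adjusted p = 0.0124). The atrial sum was 2.26 to 4.68 FPKM in KO-labelled libraries and 1.23 to 6.06 FPKM in WT libraries. Their part in the member differences was not tested.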

How the data were processed

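The authors deposited 1 table per library with a value per NCBI Gene ID, read as FPKM from the values. They also deposited expected counts, in 3 tables recorded for KO at ZT22 whose headers name KO ZT10. These were used for the gene lengths they imply and not as KO ZT22. Per the submitters' processing notes, reads were placed on mm10. An aligner and a counter are not given in the sources used. The tables held 1 further column of per-sample values, which was not used. Of 18762 IDs, 18623 were named from RefSeq. Depth came from the whole-read steps that low FPKM show in genes under 1000 bases, where 68.1 to 87.7% of values lay within 0.15 of a whole read. The 11790 genes that reached 1 FPKM in 3 or more libraries were fitted with limma 3.58.1 in R 4.3.3 on log2(FPKM + 1), as means of 11 groups (22 residual degrees of freedom) and as cosines of 24 h (27), with Benjamini-Hochberg adjustment over all of them. A fold change on that scale understates the change of low genes. Alternatives were median-ratio scaling, quantile normalization, removed length and GC trends, other filters and pseudocounts, a replicate block and leaving out libraries. The fit was tested on simulated data. Rps3a1 and Rpl36al, whose suffixes combine letters, were kept as members. Genes are named by size of change, rhythm, level and a list of stalk proteins and paralogs. Results of some genes are not reported here, though counts include them. The members and lists were chosen with earlier results of these data known.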

Additional observations from a re-analysis of the deposited data

How the results depend on the processing

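With median-ratio scaling 14 members were lower in the mean effect; 7 and 7 were higher at ZT6 and ZT14, and 1, 7 and 6 lower at ZT2, ZT6 and ZT14. With quantile normalization 10 were higher at ZT2, 19 were lower in the mean effect and 7, 8, 11, 8 and 4 from ZT2 to ZT18, 1 had an interaction and 1 a rhythm difference, and the median member difference reversed to -0.0065. With length and GC trends removed 20 were higher in the mean effect, 6 and 2 at ZT2 and ZT6; 32 were lower in the mean effect and 12, 22, 12, 6 and 4 from ZT2 to ZT18; 3 had an interaction, and the median reversed to -0.025. Rps24 reversed to -0.050 with quantile normalization and -0.042 with the trends removed, and Rplp2 to -0.058 with the trends removed. The cause was not tested. Same-numbered KO-labelled and WT libraries of a time did not deviate together (correlations -0.103 to 0.062 over 15 pairs, 0 above 0.1). The main fit used no pairing, and such correlations cannot exclude that the samples were paired. That check and the block take the recorded numbers, which for WT ZT14 differ from the column headers. A replicate block gave 35 higher and 6 lower members, 26 rhythmic in KO-labelled and 29 in WT hearts, and it brought Rps6 past the threshold (adjusted p = 0.0455). The block with trends removed gave 20 higher in the mean effect and 6, 2 and 9 at ZT2, ZT6 and ZT14, 32 lower and 11, 20, 12, 6 and 4 from ZT2 to ZT18, 3 interactions, 15 rhythmic in KO-labelled hearts, a median of -0.025, Rps24 at -0.042 and Rplp2 at -0.058. The block with median-ratio scaling, chosen after seeing the data, gave 6 and 7 higher at ZT6 and ZT14, 13 lower in the mean effect and 1, 7 and 6 at ZT2, ZT6 and ZT14. For fits with a block or with a library left out, shares over all genes are not given here, so those counts describe the members alone. Without a filter on low values Rpl34 lost its call (adjusted p = 0.0667).

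Leaving out each library in turn gave 31 to 37 higher and 4 to 8 lower members in the mean effect, with a median of 0.023 to 0.043. Higher members numbered 10 to 27 at ZT2, 7 to 11 at ZT6, 11 to 17 at ZT10, 8 to 18 at ZT14 and 11 to 16 at ZT18, and lower members 0 to 1, 1 to 4, 0 to 6, 1 to 4 and 0 to 1 at those times. Rhythmic members numbered 16 to 30 in KO-labelled and 24 to 46 in WT hearts, and 0 had an interaction or a rhythm difference in these fits. The within-group coefficient of variation was 12.71% for Rpl22l1 and 11.38% for Rps6, members at low levels, and copies that share reads limit single-gene levels.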

Other observations

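Among candidates outside the members, Rps27rt, a copy of Rps27 on chromosome 9, was listed at 0 in all 18 WT libraries and reached 2.42 FPKM in KO-labelled libraries, where its median was 0. Rps19bp1, which binds Rps19 and is no ribosomal protein, had 8.47 to 11.82 FPKM in KO-labelled libraries and 8.37 to 11.92 FPKM in WT libraries, with a difference of 0.07 ± 0.04 (log2, SE; limma adjusted p = 0.205). Rpl39l, the paralog of Rpl39 known from testis, had a median of 0.16 FPKM in KO-labelled libraries and 0.215 FPKM in WT libraries.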
